A study of Mus musculus with 4 samples.

Results

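8 genes that encode carboxypeptidases, elastases and chymotrypsins of the exocrine pancreas were examined in late fetal mouse pancreas lacking Cyp11a1. They were the carboxypeptidase genes Cpa1 and Cpb1, the elastase genes Cela1, Cela2a and Cela3b, and the chymotrypsin genes Ctrb1, Ctrc and Ctrl. A gene was taken as measured where the RefSeq accession of a non-control probe belonged to it in the gene table, and 7 of the 8 genes met this with 1 probe and 1 spot each, out of 15524 genes tested on the array. All 7 passed the filter on dim probes and stood well above background in all 8 channels. No array accession matched Ctrc, which the table for the C57BL/6J assembly lists as a transcribed pseudogene, and its values were not analysed here.

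The study hybridised pancreas RNA of Cyp11a1 knockout embryos against pancreas RNA of wild-type embryos, both of strain C57BL/6JNarl at E18.5, shortly before birth. Cyp11a1 encodes the mitochondrial enzyme that starts steroid hormone synthesis from cholesterol. Each of 4 arrays held 1 knockout extract with the red dye and 1 wild-type extract with the green dye, with no dye swap, so a gene-specific dye effect and genotype cannot be told apart. The titles number the arrays as replicates 1 to 4 (the description field gives replicate 1 for all), and how the allele was made, the sex of the embryos and whether an extract pooled embryos are not given in the sources used here. P-values therefore measure the spread between these arrays.

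Acinar cells make these enzymes as inactive zymogens, store them in zymogen granules and release them into the duct. In the gut, trypsin activates them in turn. Carboxypeptidase A1 removes hydrophobic residues from the C-terminus of a peptide and carboxypeptidase B1 removes lysine and arginine, whereas elastases and chymotrypsins are serine proteases that cut inside the chain. The genes are driven by the acinar PTF1 complex, whose DNA site joins an E-box to a TC-rich box, and their transcripts accumulate steeply before birth.

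The median signal of an array's spots ranged from 304 to 467 for knockout and from 163 to 224 for wild type. The protease probes were far brighter, with raw signals of 18888 to 302622 in knockout extracts and 7869.5 to 107102 in wild-type extracts. No spot was saturated, but 51 of the 56 protease channel values were marked in the files as read from a low-gain scan and scaled up. The exceptions were the 4 wild-type values of Ctrl and the knockout value of Cpb1 on array 4. All 12 acinar markers examined passed the filter, and Cyp11a1 itself was at -0.16 ± 0.070 (log2 knockout over wild type, SE, n = 4 arrays, limma adjusted p = 0.164).

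The 7 genes did not move together. After loess normalisation, which sets each gene against a curve fitted along brightness, Cpa1 rose and Cpb1 and Cela1 fell. Cela2a, Cela3b, Ctrb1 and Ctrl did not pass the threshold (limma, Benjamini-Hochberg adjusted p under 0.05). Over all genes 14.6% passed, 9.45% higher and 5.11% lower. The median log2 ratio was 0.0078 over the 7 genes and 0.013 over all genes, and the values of single members ranged from -0.78 to 0.62. In RNA of a whole organ, fewer cells of a type and less RNA per cell cannot be told apart. Of the 7 genes, 3 had 1 sign on all 4 arrays, which 39.1% of genes measured on 4 arrays had.

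**Figure D1:**
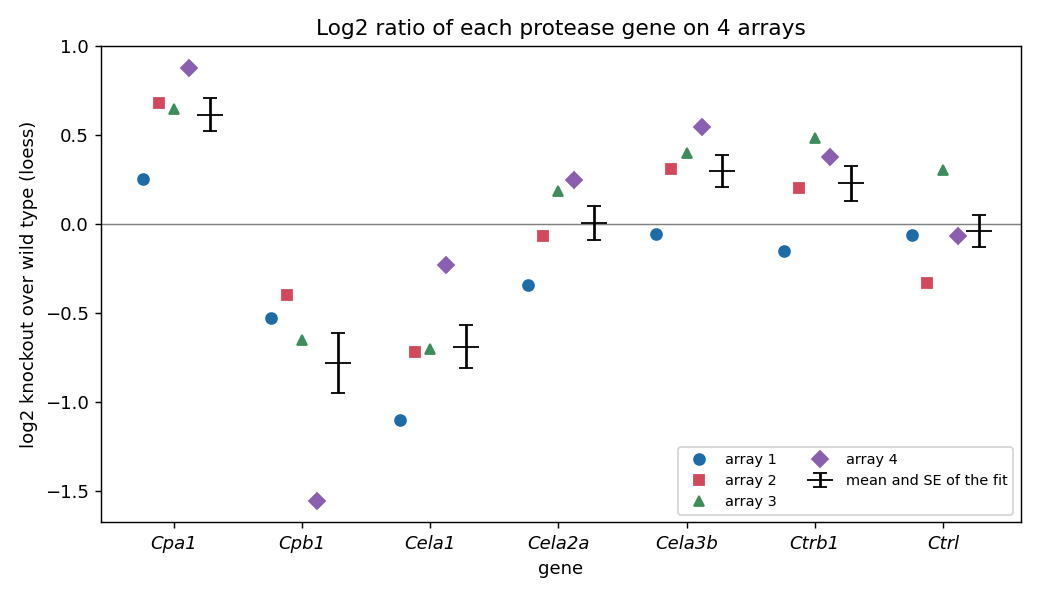
Log2 ratio of knockout over wild type after loess (y axis) for the 7 measured genes (x axis), with 1 symbol per array and the mean with its SE from the limma fit in black. Cpa1 lies above 0 and Cpb1 and Cela1 below 0 on all 4 arrays, and the other 4 genes lie on both sides.

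For the 3 genes that passed, the 250 bases before the annotated start (RefSeq, GRCm38.p6) are given, because they moved in opposite directions and the bases can be compared with the known PTF1 motifs. Capitals mark the searched letters on either strand, namely the E-box CACCTG, the TC box TTTCCC and TATAAA, and no match overlapped another. Positions count back from the base before the start, which is -1.
Cpa1, chr6:30638968-30639217, plus strand: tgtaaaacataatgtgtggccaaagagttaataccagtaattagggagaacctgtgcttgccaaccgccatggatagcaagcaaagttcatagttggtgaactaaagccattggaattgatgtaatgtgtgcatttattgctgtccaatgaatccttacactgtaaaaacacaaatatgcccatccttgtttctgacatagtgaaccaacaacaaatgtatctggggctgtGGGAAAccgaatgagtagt
Cpb1, chr3:20275734-20275983, minus strand: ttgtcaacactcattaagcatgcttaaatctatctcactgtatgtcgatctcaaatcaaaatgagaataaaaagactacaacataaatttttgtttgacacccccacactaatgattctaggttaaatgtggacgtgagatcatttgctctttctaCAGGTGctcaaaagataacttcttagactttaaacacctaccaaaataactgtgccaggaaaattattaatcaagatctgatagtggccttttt
Cela1, chr15:100687921-100688170, minus strand: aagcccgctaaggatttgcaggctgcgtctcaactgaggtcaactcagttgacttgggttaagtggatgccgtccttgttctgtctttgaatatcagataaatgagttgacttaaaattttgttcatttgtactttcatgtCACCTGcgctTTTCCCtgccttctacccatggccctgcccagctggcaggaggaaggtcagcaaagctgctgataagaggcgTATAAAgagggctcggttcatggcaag
Cela1 held CACCTG at -109 to -104, TTTCCC at -99 to -94 and TATAAA at -27 to -22, all on the strand of the gene. Cpb1, which fell as well, held CACCTG at -94 to -89 on the opposite strand and neither of the other motifs. Cpa1, which rose, held TTTCCC at -19 to -14 on the opposite strand. Of the 7 genes, each with 1 entry in the table, 5 held CACCTG (all but Cpa1 and Ctrb1), against 17.2% of 32851 promoters of the same length. TTTCCC was found in 4 (Cpa1, Cela1, Cela2a and Ctrb1), against 21.9% of promoters, and TATAAA in Cela1 alone, against 12.4%. The letters are a description of these windows, and whether they bear on the ratios was not tested.

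Of the carboxypeptidases, Cpa1 gave log2 ratios of 0.26, 0.68, 0.65 and 0.88 on arrays 1 to 4, with a mean of 0.62 ± 0.092 (SE, n = 4, 1.53-fold, limma adjusted p = 0.0068). Its normalised intensity was 139961, 141596, 151951 and 159677 in the knockout extracts of arrays 1 to 4. In the wild-type extracts it was 117088, 88209, 96913 and 86674. The groups did not overlap, with the wild-type extract of array 1 closest to the knockout extracts, which 6.23% of genes measured on 4 arrays showed in this direction. Cpa1 passed under all 17 alternatives examined, some of which could not change its ratio, with means from 0.53 to 1.26 (median centring).

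Cpb1 went the other way, at -0.52, -0.40, -0.65 and -1.55, with a mean of -0.78 ± 0.17 (SE, n = 4, 1.72-fold lower, limma adjusted p = 0.024). Knockout extracts had normalised intensities of 30108, 35705, 27535 and 13059, and wild-type extracts had 43263, 47009, 43183 and 38288. All knockout extracts lay below all wild-type extracts, a pattern of 2.15% of genes, and the knockout extract of array 4 stood well below the other 3. That extract's raw signal was 18888, against 43121 to 57229 in the other knockout extracts. It was the only Cpb1 value not scaled up from the low-gain scan, so the array 4 ratio sets an unscaled reading over a scaled one. The effect of this was not tested. Without replicate 4 the mean was -0.52 (adjusted p = 0.010), and without replicate 1 it was -0.87 (adjusted p = 0.056). The call was also lost with Feature Extraction's processed signals or its log ratio column (adjusted p = 0.065 in each), scaling between arrays (0.061), eBayes with trend and robust (0.144), single channels (0.261) and median centring (-0.20, 0.298).

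Set against each other on the same array, Cpa1 exceeded Cpb1 by 0.78, 1.08, 1.30 and 2.43 in log2 ratio on arrays 1 to 4 (mean 1.40 ± 0.72, SD, n = 4). The difference was positive on all 4 arrays, and the exact two-sided sign-flip permutation test gave p = 0.13, the smallest that 4 arrays allow (0.156 adjusted over the 5 pairs examined within the 3 enzyme classes). It was 1.47 with median centring and 1.05 without replicate 4. A shift shared by both genes cancels in the difference, so by construction it depends less on centring than either gene alone.

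Among the elastases, Cela1 encodes chymotrypsin-like elastase 1 and was the member that fell. Its log2 ratios were -1.10, -0.72, -0.70 and -0.23, with a mean of -0.69 ± 0.12 (SE, n = 4, 1.61-fold lower, limma adjusted p = 0.012). Normalised intensities were 39393, 46153, 42837 and 57639 in knockout extracts and 84452, 75852, 69546 and 67630 in wild-type extracts. Every knockout extract was below every wild-type extract, which 2.15% of genes measured on 4 arrays showed in this direction. The gap was widest on array 1 and narrowest on array 4. Adjusted p was 0.0078 to 0.035 without any 1 replicate, but the call was lost with eBayes trend and robust (0.063), with single channels (0.0503) and with median centring (-0.080, 0.483).

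Cela2a, the gene of elastase 2A, was at -0.34, -0.063, 0.19 and 0.25, with a mean of 0.0078 ± 0.094 (SE, n = 4, limma adjusted p = 0.966). Its unadjusted 95% interval ran from -0.21 to 0.23. Knockout extracts spanned 45810 to 87787 and wild-type extracts 51016 to 74117, and the groups overlapped fully.

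Cela3b, the gene of elastase 3B, was at -0.056, 0.31, 0.40 and 0.55, with a mean of 0.30 ± 0.090 (SE, n = 4, limma adjusted p = 0.065). Normalised intensities were 61853, 64755, 71104 and 72927 in knockout extracts and 64301, 52124, 53875 and 49972 in wild-type extracts. The groups overlapped through array 1 alone, and without replicate 1 the gene passed at 0.42 (adjusted p = 0.021). Cela3a lies next to Cela3b in the gene table and encodes a close relative, and whether the probe also reads its transcript was not tested.

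**Figure D2:**
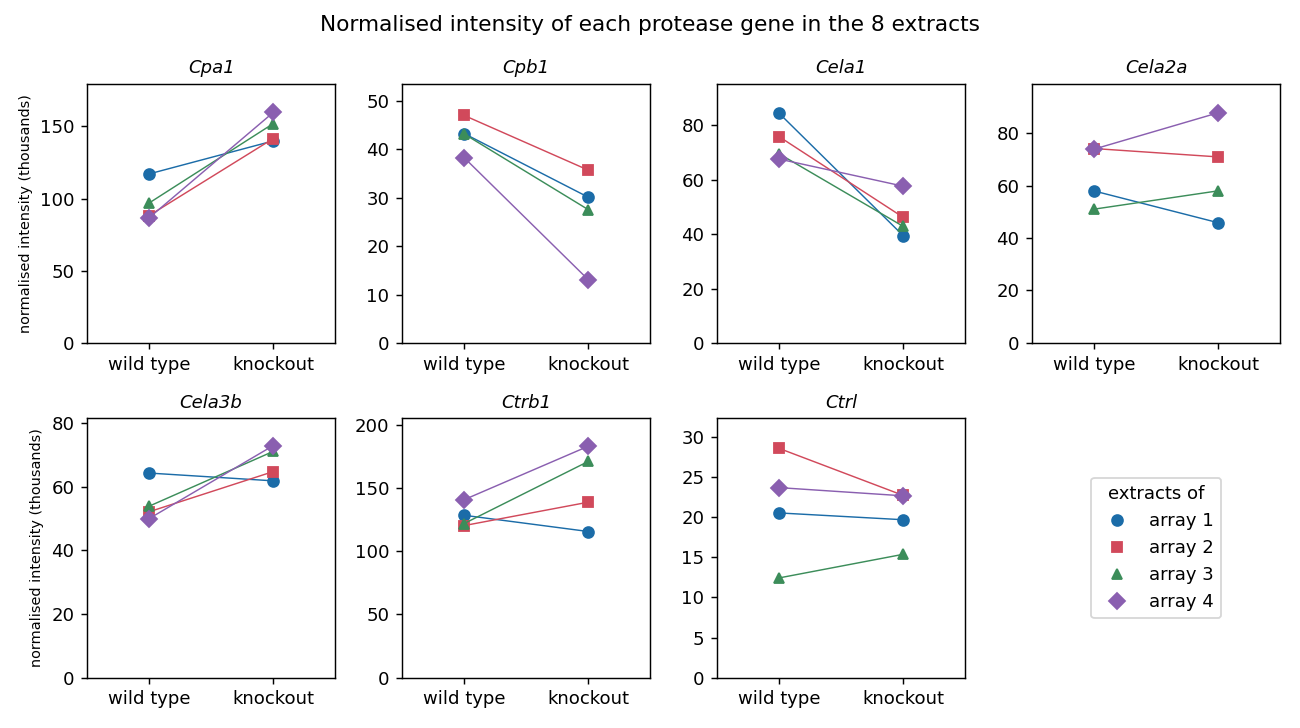
Normalised intensity (y axis, starting at 0) in wild-type and knockout extracts (x axis), with 1 panel per gene and a line joining the 2 extracts of an array. The extracts of Cpa1, Cpb1 and Cela1 separate by genotype, and the lowest Cpb1 point is the knockout extract of array 4 at 13059.

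The distances between the elastases were steadier than the elastase ratios themselves. Cela1 lay below Cela3b by -1.04, -1.03, -1.10 and -0.78 on arrays 1 to 4 (mean -0.99 ± 0.14, SD, n = 4), and below Cela2a by a mean of -0.69 ± 0.17. Cela2a lay below Cela3b by -0.28, -0.38, -0.22 and -0.30 (mean -0.29 ± 0.066). Each of these 3 differences had 1 sign on all 4 arrays, with p = 0.13 in the exact sign-flip permutation test (0.156 adjusted over the 5 pairs). The SDs of the single ratios were 0.36 for Cela1, 0.27 for Cela2a and 0.26 for Cela3b. With median centring the 3 mean differences were -0.99, -0.70 and -0.29. The 3 genes were of like brightness (15.84, 15.94 and 15.89), so centring shifts them alike and the differences could hardly change.

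Of the chymotrypsins, Ctrb1 (chymotrypsinogen B) was at -0.15, 0.21, 0.49 and 0.38, with a mean of 0.23 ± 0.097 (SE, n = 4, limma adjusted p = 0.155). Knockout extracts had normalised intensities of 115650, 138850, 171090 and 183134, and wild-type extracts had 128484, 120334, 121943 and 140815. The groups overlapped, with array 1 alone in the opposite direction, and without replicate 1 Ctrb1 passed at 0.36 (adjusted p = 0.034).

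Ctrl, the gene of chymotrypsin-like protease, was at -0.061, -0.33, 0.31 and -0.064, with a mean of -0.037 ± 0.092 (SE, n = 4, limma adjusted p = 0.821). Its extracts spanned 15371 to 22698 in knockout and 12428 to 28558 in wild type, and both extracts of array 3 were the lowest of their genotype. The spread between wild-type extracts (SD 0.51 on the log2 scale) was larger for Ctrl than for the other 6 genes, at 0.10 to 0.27. On every array the Ctrl knockout value was scaled up from the low-gain scan and the wild-type value was not. Ctrb1 exceeded Ctrl by 0.27 ± 0.28 (SD, n = 4), positive on 3 of 4 arrays (exact sign-flip permutation p = 0.25, 0.25 adjusted over the 5 pairs).

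**Figure D3:**
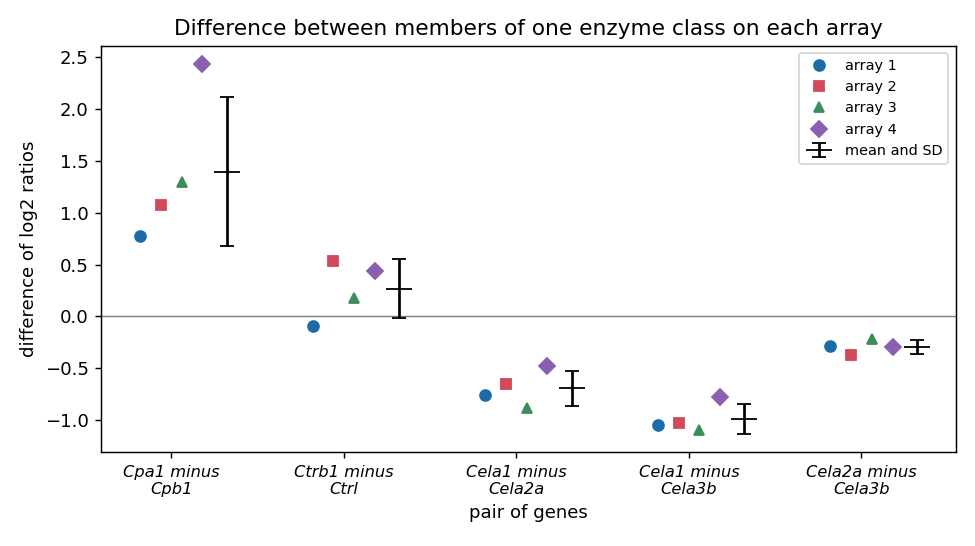
Difference of log2 ratios between 2 genes of one enzyme class (y axis) for the 5 pairs (x axis), with 1 symbol per array and the mean with its SD in black. The 3 elastase pairs and the carboxypeptidase pair keep 1 sign on all 4 arrays, and the pair of Ctrb1 and Ctrl does not.

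The genes differed in which array gave their extreme values. Array 1 gave the lowest ratio for 5 of the 7 genes (all but Cpb1 and Ctrl), and array 4 the highest for 4 (Cpa1, Cela1, Cela2a and Cela3b). Cpb1 was lowest on array 4 and highest on array 2, and Ctrl was lowest on array 2 and highest on array 3. Within every array Cpa1 had the highest log2 ratio of the 7, and Cela1 and Cpb1 the lowest 2, also with median centring. Cela1 was lowest on arrays 1, 2 and 3, and Cpb1 was lowest on array 4. The distance from the lowest to the highest member was 1.36, 1.40, 1.35 and 2.43 on arrays 1 to 4. The SD over all genes was 0.19 to 0.24, a different measure from a range, so the 2 are not compared.

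Which of the genes passed depended on how the arrays were centred, and for Ctrl the direction did as well. The red-to-green ratio rose with brightness on these arrays, and loess lowered the 7 genes by 0.50 to 0.74 on single arrays. With median centring in place of loess, Cpa1 (1.26), Cela3b (0.91), Ctrb1 (0.88), Cela2a (0.62) and Ctrl (0.51) passed as higher, and Cpb1 (-0.20) and Cela1 (-0.080) did not pass. In that setting 61% of all genes were higher and 15.8% lower, and the median of all genes was 0.26. Relative to the median gene (an alternative added after seeing the data), the same 5 genes passed as higher at 0.26 (Ctrl) to 1.01 (Cpa1), Cela1 passed as lower at -0.33 and Cpb1 was at -0.45 (adjusted p = 0.067), against 27.4% of all genes higher and 31% lower. The increase of Cpa1, and the place of Cpb1 and Cela1 below the other 5, held in all 3 settings. Median centring and the setting relative to the median gene differ by a constant on each array, so they share 1 order by construction. Loess lowered the 7 genes by 0.59 to 0.74 on array 1 and by 0.50 to 0.57 on array 4. Little change of order was therefore possible.

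**Figure D4:**
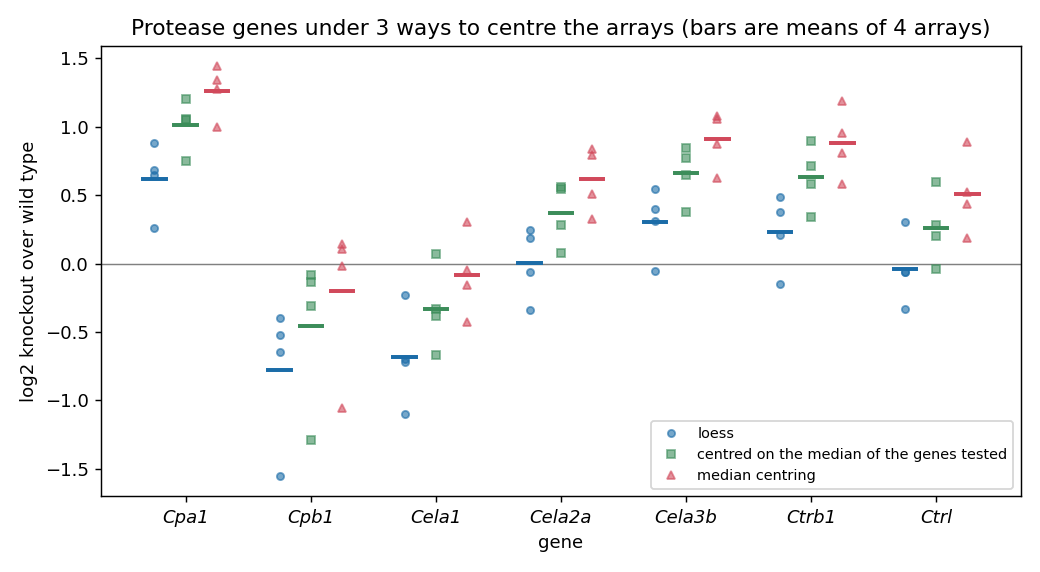
Log2 ratio of knockout over wild type (y axis) of the 7 genes (x axis) with loess, with each array centred on the median of the genes tested, and with median centring of all probes. Points are arrays and bars are means of 4 arrays, and all 7 genes shift upwards from loess to median centring while Cpa1 stays highest and Cpb1 and Cela1 stay lowest.

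Genes of like brightness give a scale for this. Within 0.5 on the log2 brightness scale of Cela1 lay 189 other genes, and 0 of them had a lower log2 ratio after loess. For Cpb1 it was 1 of 356 (Smtn, a smooth muscle cytoskeletal gene, named after its value was seen). Cpa1 lay above 13 of its 16 neighbours in brightness, and the others were Cel, Pnliprp1 and Rn28s1, also named after their values were seen. Those 16 are few, 7 of them were acinar products and 5 were called higher after loess. Cela2a, at 85 below and 80 above, lay near the middle of its 165 neighbours. Cela3b had 159 below and 23 above, and Ctrl 169 below and 242 above. Ctrb1, the brightest member, had 9 neighbours, 6 of them acinar products, and lay above 3 and below 6. With median centring Ctrb1 was at 0.88, against a median of 1.19 for those 9. Its loess ratio above 0 is therefore not a rise over genes of its own brightness. Of the 6 genes at least as bright as Cpa1, 5 were in the lists of acinar products. Leaving all acinar products out of the loess fit gave 0.62 for Cpa1, -0.78 for Cpb1 and -0.69 for Cela1. These products are few among the spots that shape each part of the curve, so the ratios could hardly change. Whether acinar products distort the fit among bright spots is therefore not decided by it.

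**Figure D5:**
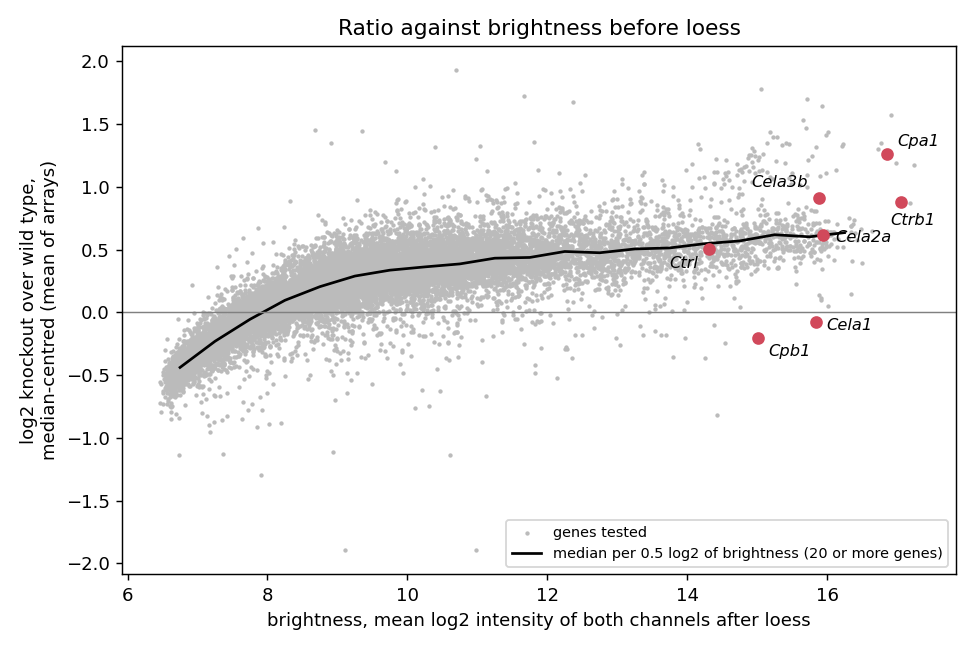
Median-centred log2 ratio (y axis, mean of arrays) against brightness (x axis, mean log2 intensity of both channels) for the 15524 genes tested, with the 7 protease genes in red and the running median in black. The running median rises with brightness, and Cpb1 at -0.20 and Cela1 at -0.080 lie below it. Cpa1 at 1.26 lies above the median of its neighbours in brightness (0.75).

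Other genes of the digestive system were read from lists. Of 9 measured trypsinogens and protease inhibitors, 2 rose, 1 fell and 6 did not pass, where 9.45% of all genes were higher and 5.11% lower. Spink1, the trypsin inhibitor of acinar cells, rose by 1.04 ± 0.076 (log2, SE, n = 4), and Serpini2, a serine protease inhibitor, rose by 0.66 ± 0.11. Try5, a trypsin with close paralogs, was at -0.56 ± 0.081 with loess and at 0.052 with median centring.

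Among 16 measured carboxypeptidases outside the pancreatic zymogens, 2 rose, 1 fell and 13 did not pass, with a median of 0.032. Over all genes 14.6% passed, 9.45% higher and 5.11% lower, so these counts are not read as a trait of the family. Cpn1, a subunit of the plasma enzyme carboxypeptidase N, rose by 0.91 ± 0.054 (limma adjusted p = 0.00092) and Cpq rose by 0.34 ± 0.060. Cpxm2, the gene that fell, was at -0.25 ± 0.049 with loess and at 0.037 with median centring. Its call was also lost with the mean of its probes (-0.12, limma adjusted p = 0.162), with single channels (0.279), without replicate 3 (0.069) and without replicate 4 (0.054). Cpa3, the carboxypeptidase of mast cells, named here for its role, was at 0.13 ± 0.22.

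Of the 20 other acinar secretory products measured, 5 rose, 7 fell and 8 did not pass (median 0.077), where 14.6% of all genes passed. With median centring 14 were higher and 3 lower, where 61% and 15.8% of all genes were. Tff2, a trefoil peptide, rose by 0.65 ± 0.057 and Pnliprp1, a lipase relative, by 0.92 ± 0.096, whereas Gp2, of the zymogen granule membrane, fell by 1.52 ± 0.10 and Dmbt1, a secreted glycoprotein, by 1.37 ± 0.15. Of 15 acinar transcription factors, Rbpjl, the acinar subunit of PTF1, rose by 0.40 ± 0.073, Foxa2 rose by 0.35 ± 0.065 and 13 did not pass. Ptf1a, a further subunit of the same complex, also named for its role, was at -0.61, 0.58, -0.58 and 0.24 on arrays 1 to 4 (mean -0.091 ± 0.19).

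The genes whose 4 log2 ratios lay closest to those of a member were picked by the root mean square difference over the 4 arrays, among 14916 genes. Nearest to Cpa1 were Cel, the bile salt-dependent lipase of acinar cells (0.079), and the ribosomal protein genes Rpl38 (0.094) and Rpl37a (0.11). Nearest to Cela1 were Ggt1, a glutathione-degrading enzyme of the cell surface (0.12), Pnliprp2, a pancreatic lipase relative (0.18), and Lcmt1, a methyltransferase (0.19). Pnliprp2 gave -1.12, -0.60, -1.03 and -0.19 on arrays 1 to 4, with array 1 lowest and array 4 highest as for Cela1. No gene came close to Cpb1, for which Hspb8, a small heat shock protein, was nearest at 0.35, followed by Ifrd1 (0.38) and Synpo2l (0.40). All genes of an array share its 2 extracts, and the distances describe these 4 arrays.

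Markers of other cell types were examined beside these values. None of 11 hepatocyte, 8 mast cell, 7 intestinal, 6 stomach, 8 duct and 5 red cell markers tested passed in limma. An unadjusted limma p under 0.05 was found for 2 hepatocyte, 1 intestinal, 1 stomach and 1 duct marker. With median centring, where 61% of all genes were higher and 15.8% lower, 5 hepatocyte, 4 red cell, 8 duct, 3 intestinal, 2 mast cell and 2 stomach markers passed as higher. In that setting 3 stomach, 1 intestinal and 1 mast cell marker passed as lower. Of these lists, hepatocyte and red cell markers had the highest medians, at 0.37 and 0.41, and the widest spread. The summed intensity of hepatocyte markers was 21368 to 41716 in knockout extracts and 6953 to 40517 in wild-type extracts, and Alb alone gave 4.13, 2.70, -3.52 and 1.44 on arrays 1 to 4. On arrays 1 and 3, with the highest and the lowest Alb ratio, Cela1 was at -1.10 and -0.70 and Cpa1 at 0.26 and 0.65. Cela2a was at -0.34 and 0.19, Cela3b at -0.056 and 0.40, Ctrb1 at -0.15 and 0.49, and Ctrl at -0.061 and 0.31. Only Cpb1, at -0.52 and -0.65, was higher on array 1 than on array 3. Summed duct markers were 164721 to 177905 in knockout and 162530 to 168722 in wild-type extracts. Of 7 islet markers 1 passed as lower (Chga, -0.24 with loess and 0.23 with median centring), and of 8 mesenchyme markers 1 passed as higher (Pdgfrb, 0.33), both named after their values were seen. The part of other cell types in the member ratios was not tested.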

How the data were processed

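Two-colour Agilent arrays measured pancreas RNA of 4 knockout and 4 wild-type extracts, 1 of each per array. The authors deposited scanner output as spot intensities, and per the file headers the software was Agilent Feature Extraction 10.5.1.1. The log10 ratio column of the deposited files matched the processed red signal over the green one to within 0.001 in 92.5% of non-control spots. Median intensities were corrected with normexp (offset 50) and normalised by loess (span 0.3) within each array in limma 3.58.1 (R 4.3.3), with control and non-uniform spots at weight 0. Aquantile gave the normalised intensity of each extract.

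Probe accessions were matched to RefSeq's GRCm38.p6 gene table, which named 25097 of 41174 probes (61%). The table's build differs from the array design's, so only promoter positions are given. A probe was tested if well above background in 1 channel on at least 3 arrays, and the brightest probe stood for a gene. The number of arrays, 4, limits the precision. Log2 ratios were tested against 0 with lmFit and eBayes, with Benjamini-Hochberg adjustment over all 15524 genes and a threshold of 0.05. The fit was tested on simulated data. Pairs used the exact sign-flip permutation test.

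All 4 arrays lay on 1 slide, so slide could not be examined as a batch. The pairing of knockout and wild-type extracts is that of the arrays and lies inside each ratio. Alternatives changed the background correction, source of signal, centring, loess, scaling, filter, probe rule, block and eBayes, and left out each array. Besides the members, the text names up to 4 genes with the smallest p past the threshold from each pathway list, the 3 genes nearest to each member past the threshold, and Cyp11a1, with exceptions stated. The list of close relatives of the members is not reported here. Where the Cyp11a1 probe lies relative to the altered part of the gene is unknown here, so its ratio does not check the labels. The members and the lists were chosen with earlier results of these data known. Ctrc was not analysed here, so 2 of the 7 planned pairs were not computed.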

Additional observations from a re-analysis of the deposited data

Results flagged for a closer look

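Of 49 sets of 4 values examined with Dixon's ratio, 3 had an array far from the other 3, and chance alone gives about 1 in 20. Pnliprp1, a pancreatic lipase relative, was at 0.51 on array 1 (log2 knockout over wild type), against 1.03 to 1.09 on the others. Rpl38, a ribosomal protein gene with a pattern close to that of Cpa1, was at 0.35 on array 1, against 0.76 to 0.82. Cpxm2, a carboxypeptidase-like gene, was at -0.37 on array 3, against -0.22 to -0.20. None of the 7 measured proteases was among them, and the value of Cpb1 on array 4 (-1.55) lay below the critical ratio.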

How the results depend on the processing

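Of the 7 genes, Cpa1 kept its direction and its call under all 17 alternatives, Cela1 under 14 and Cpb1 under 9. Some of these alternatives could not change a member's ratio. Each member has 1 probe, well above background in all channels, so both changes of the filter and the mean of a gene's probes left its ratio as it was. Leaving acinar products out of the loess fit could hardly change it. The number of members called was 5 with median centring, 6 relative to the median gene, 1 with single channels and 1 with eBayes trend and robust. Members higher numbered 5 with median centring, where 61% of all genes were higher, and 5 relative to the median gene, where 27.4% were. Members lower numbered 1 each with processed signals, the log ratio column and scaling between arrays. Of all 15524 genes, 620, 596 and 833 were lower in those settings. Members lower also numbered 1 relative to the median gene, and 0 with median centring, single channels, and eBayes trend and robust. With eBayes trend and robust, 2502 of the 15524 genes were called (1607 higher, 895 lower). Leaving out each replicate gave 3 to 4 members called, 1 to 3 higher and 1 to 2 lower, with the highest total, 3 higher and 1 lower, without replicate 1. Ctrl reversed to 0.51 with median centring and 0.26 relative to the median gene, and with median centring Try5 reversed to 0.052 and Cpxm2 to 0.037. Of all 15524 genes, 11922 were called with median centring (9471 higher, 2451 lower) and 9065 relative to the median gene (4254 higher, 4811 lower). With single channels and no replicate block, 107 of the 15524 were called (77 higher, 30 lower). Without the pairing of extracts on an array, that last setting called Cpa1 at 0.62 (adjusted p = 0.040). Leaving out each replicate called 1004 to 1628 genes (639 to 996 higher, 348 to 632 lower), over 1.5 times fewer than the 2260 of 4 arrays without replicate 1 (1121), 3 (1004) or 4 (1054). The cause was not tested. The 5 pair differences kept their direction under all 11 alternatives examined for each, though a shift shared by both genes of a pair cancels in them. The 4 arrays limit what can be detected, the exact test cannot go below 0.13, and 51 of 56 protease values rest on scaled low-gain readings.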
